A study of Mus musculus with 7 samples.

Results

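The cytosolic ribosomal protein genes examined here were the 71 autosomal protein-coding genes of the mm9 annotation whose symbol is Rpl or Rps followed by a number, with an optional letter a, x or y, or by p0 to p2. They were chosen by symbol alone, from 21418 autosomal protein-coding genes, and comprised 42 genes of the large ribosomal subunit (Rpl) and 29 of the small subunit (Rps). Binding of CTCF and of the cohesin subunit Rad21 was profiled by ChIP-seq in liver nuclei of female Crl:CD1(ICR) mice, an outbred stock, at 8 weeks of age, with 4 CTCF libraries and 3 Rad21 libraries. The peaks of each antibody were deposited as 1 list called on the merged libraries, so the spread between mice could not be estimated, no SD is given, and every comparison below is a description without a test. The lists hold no read counts, and the sequencing depths that the study states were not used here. They also hold no expression values by which the labelled tissue could be checked. Neither list had a peak on the Y chromosome (0 of 68667 CTCF peaks and 0 of 68656 Rad21 peaks).

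Cytosolic ribosomal proteins are the protein part of the ribosome, and their genes are among the most uniformly transcribed in mammalian cells. Many of their transcripts begin with a run of pyrimidines that couples their translation to nutrient signals, and several of the genes carry small nucleolar RNAs (snoRNAs) in their introns. CTCF is a zinc-finger protein that binds a long, oriented DNA motif, and cohesin is a ring complex that extrudes chromatin loops and halts at CTCF, which is why overlapping CTCF and Rad21 peaks are read as candidate loop anchors.

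A CTCF motif was learned as a 20-bp matrix from 1000 strong CTCF peaks more than 1 kb from any annotated transcript start. It was found within 100 bp of the summit (the position of greatest enrichment) in 13 CTCF peaks at these promoters. The threshold of 14.1 bits was one reached in 1% of background windows. The matches below, drawn from the highest-scoring ones, are shown because they are among the sequences at ribosomal protein promoters that most resemble the CTCF site. Capitals mark the match, with 5 flanking bases on either side in lower case, and each sequence is written 5′ to 3′ on the strand of the match, with its position in mm9.
Rpl36 (chr17:56752743-56752772, plus strand): acctcCGGCCACCAGAGGTCGCCCGcagcg
Rpl22 (chr4:151700388-151700417, minus strand): aaaccCGGCCACCAGGTGGAGGGCCatttc
Rplp0 (chr5:116009291-116009320, plus strand): gctccGACCCAGCAGAGGGCAGCAGgtctg
Rpl5 (chr5:108329476-108329505, plus strand): tcctcCTACCGGCAGGGGGCGATAGcccgc
Rpl38 (chr11:114529764-114529793, plus strand): aatctGAACCAGAAGAGGGCAGGGCtgctg
Rpl11 (chr4:135610023-135610052, minus strand): cctgcATACCAGAAGAGGGCATCAGatccc
Rpl23a (chr11:77996741-77996770, minus strand): cttaaCATCCACAGGGTGGCGCTCCgggtc
Rps19 (chr7:25668996-25669025, plus strand): agactCCGGCACTAGATGGCGGAGCtgaac
Rps15 (chr10:79755090-79755119, plus strand): gcctcCGGACAGCGGGGGGCAATGGcgagt
Rpl13a (chr7:52391856-52391885, minus strand): acttgTTACCACTAGGTGGCGTGTCccgcc
Rps3a (chr3:85946646-85946675, minus strand): acctcCCGACACACGAGGGCGCTGTcgcag
The scores ran from 21.97 bits at Rpl36 to 14.15 bits at Rps3a, and the match at Rpl32 scored 14.10 bits. In 11 of the 13 genes the match lay on the strand of the gene, and in the others, Rpl22 included, on the opposite strand, compared with 55.9% on the strand of the gene among 2479 promoter CTCF peaks with a motif. It was upstream of the nearest annotated transcript start in 12 of the 13, the exception being Rpl22, where it was 426 bp downstream. At Rpl23a that nearest start is an internal one, and the match lies inside the gene, in a peak with its summit in an intron.

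Promoter peaks, defined as peaks with a summit within 1 kb of an annotated transcript start, were found at most ribosomal protein genes. CTCF bound 62 of them (87.3%) by this definition, against 53.6% of all autosomal protein-coding genes. A Rad21 peak was present at 63 (88.7%, against 53.3%), and overlapping CTCF and Rad21 peaks, sharing at least 1 bp, were present at 60 (84.5%, against 49.4%). When only peaks with a fold enrichment (the ratio of the signal at the summit to the local background) of at least 5 were kept, the excess over all genes turned to -2.32 percentage points for Rad21 and -4.17 for overlapping peaks, and fell to 11.7 for CTCF. The large subunit genes had a CTCF peak in 38 of 42 cases and the small subunit genes in 24 of 29. Overlapping peaks were found at 37 and 23 genes, respectively. All 3 genes of the P-stalk (Rplp0, Rplp1 and Rplp2), the lateral stalk that recruits elongation factors, had overlapping peaks. So did the 9 genes of a short list linked to Diamond-Blackfan anemia in people, such as Rps19, Rpl5 and Rpl11. The list is not complete, and Rpl15, Rps27, Rps28 and Rps29, which have also been linked to this disease, had no overlapping peaks.

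**Figure D1:**
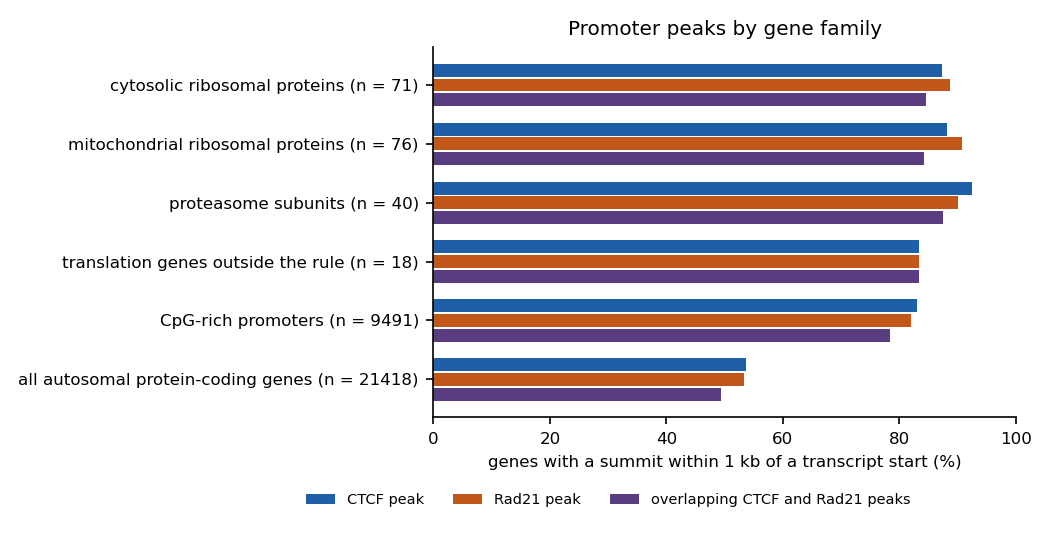
Share of genes (horizontal axis, %) with a CTCF peak, a Rad21 peak, or overlapping peaks of both within 1 kb of a transcript start, for the cytosolic ribosomal protein genes and 5 other gene sets (n beside each name). The 71 ribosomal protein genes reached 87.3%, 88.7% and 84.5%, close to the other housekeeping families and to CpG-rich promoters (83.0%, 82.0% and 78.3%), while all genes together stood at 53.6%, 53.3% and 49.4%.

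These shares were near those of other housekeeping families. Among 76 mitochondrial ribosomal protein genes, 88.2% had a CTCF peak, 90.8% a Rad21 peak and 84.2% overlapping peaks. For 40 proteasome subunit genes the counts were 37, 36 and 35, and of 18 other translation genes (elongation and initiation factors and their usual companions) 15 had overlapping peaks. Among the 9491 genes with a CpG-rich promoter (GC of at least 50% and an observed over expected CpG ratio of at least 0.6 from 250 bp before to 50 bp after the start), 83.0% had a CTCF peak and 78.3% overlapping peaks. The sequence was scored at a single start per gene, that of the longest coding transcript, whereas peaks were counted at any annotated start. The 52 ribosomal protein genes with a CpG-rich promoter had a CTCF peak in 82.7% of cases and overlapping peaks in 78.8%. For these 52 genes, the excess over all genes was therefore not seen against genes with CpG-rich promoters.

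The remaining 19 ribosomal protein genes had promoters that were not CpG-rich by these limits. All 19 had overlapping CTCF and Rad21 peaks, compared with 26.4% of the 11927 genes without a CpG-rich promoter. The 2 sets were unlike in other respects, with a median ratio of observed to expected CpG of 0.536 at the 19 genes against 0.254, and a mean of 4.68 annotated starts per gene against 2.51. These 19 promoters failed the GC limit in 11 cases and the CpG ratio in 13, with 5 below both. The 7 ribosomal protein genes that lacked both peaks all had CpG-rich promoters.

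The 11 genes without overlapping peaks fell into small classes. Neither a CTCF nor a Rad21 peak was found at 7 genes, including Rpl15, Rpl28 and Rpl3 of the large subunit and Rps21 and Rps29 of the small subunit (9.86%, against 43.1% of all genes and 14.0% of those with a CpG-rich promoter). Rpl3 and Rpl15 are core proteins of the large subunit. Rpl19 and Rps28 had a Rad21 peak without a CTCF peak (2 genes, against 3.34% of all genes), and both of these peaks were weak. At Rpl19 the fold enrichment was 2.27, in an intron 238 bp downstream of the nearest start. At Rps28 it was 2.72, in a coding exon 11 bp from the start. Rpl8 alone had a CTCF peak without a Rad21 peak (1 gene, against 3.69% of all genes), with a fold enrichment of 3.40 in a coding exon (chr15:76734583-76735274, 468 bp downstream). Rps27 had both, but 460 bp upstream for CTCF and 151 bp downstream for Rad21, without overlap.

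The 1 kb limit decided few of these calls. Of the 9 genes without a CTCF promoter peak, Rps28 came closest, with a summit at 1639 bp and a fold enrichment of 2.39, and the other 8 had their nearest CTCF summit more than 2 kb away. Just inside the limit lay a CTCF summit of Rps18 at 946 bp, with a fold enrichment of 2.53, and its Rad21 summit at 914 bp, with 2.73. Both belonged to a gene with other promoter peaks. No Rad21 summit lay between 1 kb and 2 kb of the 8 genes without a Rad21 promoter peak.

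The strength of CTCF binding varied widely among the promoters that had a peak. Of the 62 genes, 20 had a strongest CTCF peak with a fold enrichment of at least 10 (28.2% of the 71 genes, against 15.4% of all genes and 23.0% of those with a CpG-rich promoter), a limit chosen after the values were seen. A further 14 had one between 5 and 10 (19.7%, against 20.8% of all genes), and 28 one below 5 (39.4%, against 17.5%). In all, 87 CTCF peaks were assigned to the 71 genes, with a median fold enrichment of 4.34 (interquartile range 3.40 to 9.31), below the 5.22 of 14866 promoter peaks of all genes and the 6.05 of the whole list. Of these 87 peaks, 34.5% exceeded the median of the list, against 41.4% of all promoter peaks. The distribution therefore held many weak peaks beside a group of strong ones.

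**Figure D2:**
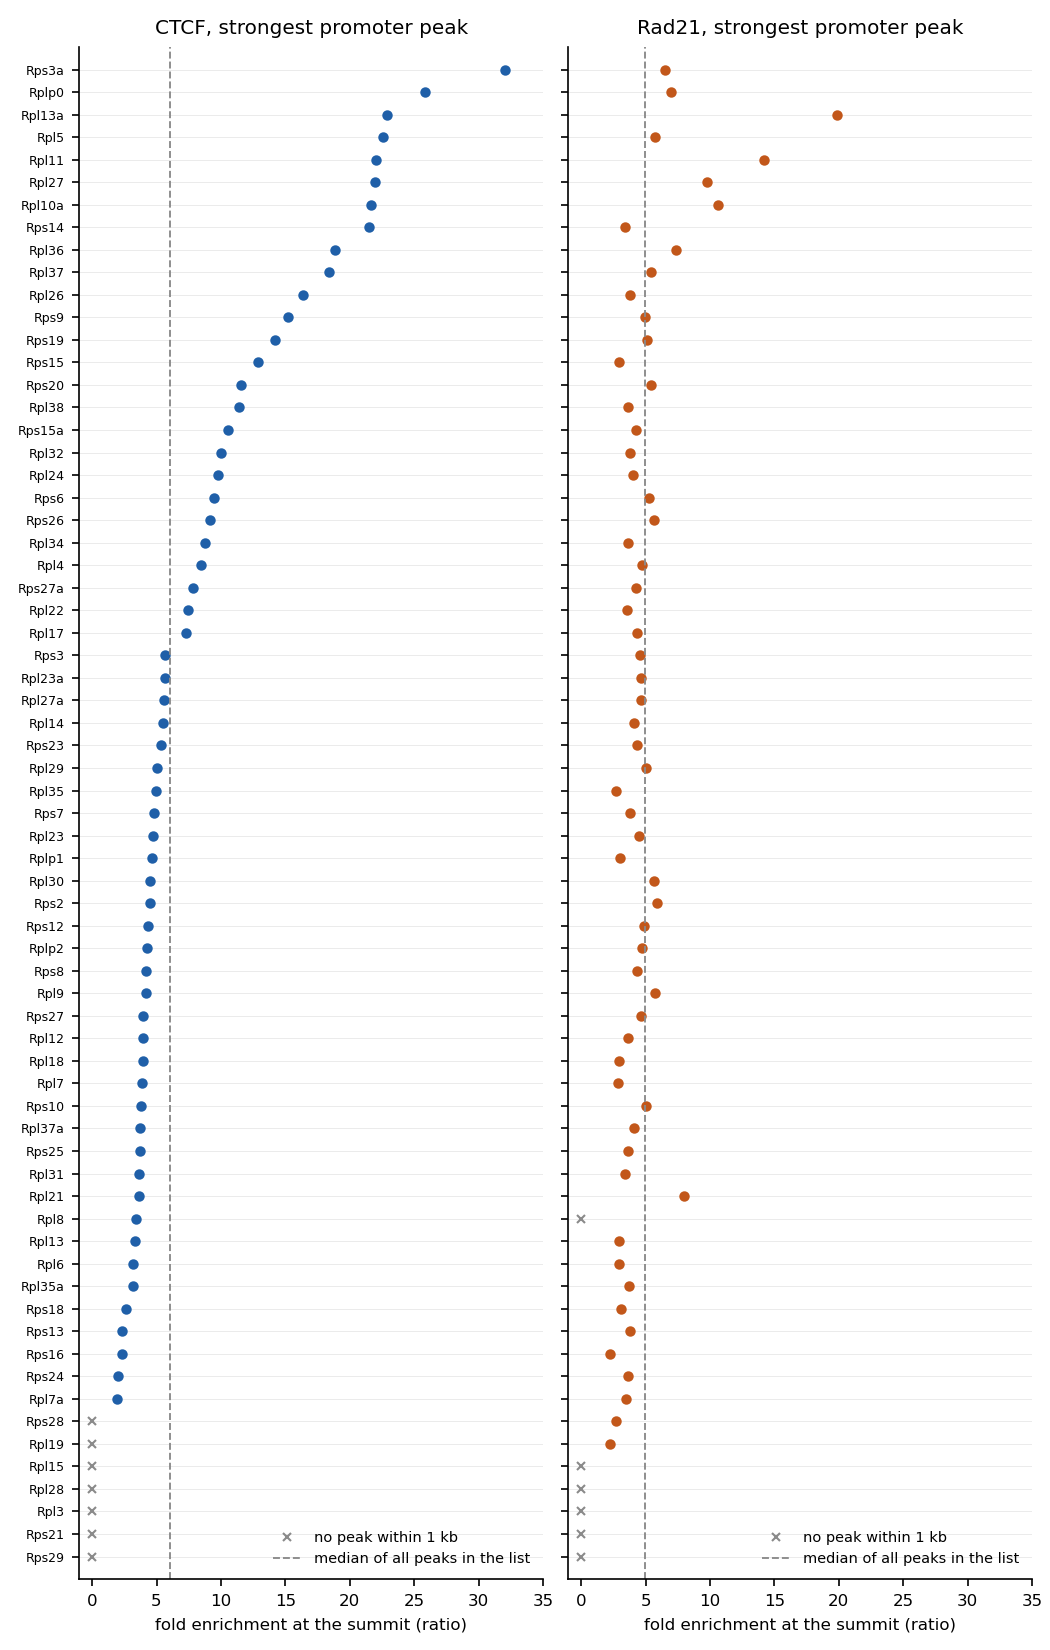
Fold enrichment at the summit (horizontal axis, ratio) of the strongest CTCF peak (left) and the strongest Rad21 peak (right) within 1 kb of a start, for 67 of the 71 genes, ordered by CTCF. Crosses mark genes without a peak and dashed lines the median of all peaks in each list (6.05 and 4.93), and 18 of the plotted genes reach at least 10 for CTCF while 3 do for Rad21.

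The strongest CTCF peak belonged to Rps3a, a small subunit protein, with a fold enrichment of 32.1 (chr3:85946248-85946891), a value exceeding 99.9% of the list. Its summit lay 56 bp upstream of the start, and the motif shown above was 36 bp upstream. Rplp0, the base of the P-stalk, followed with 25.8 (chr5:116009122-116009613), 144 bp upstream. Rpl13a, which can also leave the ribosome to repress translation of inflammatory transcripts, had 22.9 (chr7:52391632-52392143), 94 bp upstream and also within 1 kb of a start of the neighbouring gene Flt3l. These 3 peaks each held a motif.

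Rpl5 and Rpl11, which bind 5S ribosomal RNA and, when free, restrain the p53 inhibitor Mdm2, had 22.6 (chr5:108329308-108330219) and 22.0 (chr4:135609031-135609674). The summit at Rpl5 was 9 bp upstream of the start. At Rpl11 the strong peak was 78 bp upstream and its best match scored only 9.23 bits, whereas the motif shown above lay in a second, weaker CTCF peak with a fold enrichment of 3.20, 694 bp upstream of the start.

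Also among the 10 highest were Rpl27 with 21.9 (chr11:101303184-101303956), Rpl10a with 21.7 (chr17:28465060-28465764), Rps14 with 21.5 (chr18:60933758-60934547) and Rpl36 with 18.8 (chr17:56752552-56752988). Of these 4, Rpl36 held the motif of highest score among the ribosomal protein genes, and the other 3 had none above the threshold. Further genes with at least 10 included Rpl37, Rpl26, Rps9, Rps19, Rps15, Rps20, Rpl38, Rps15a and Rpl32, from 18.4 down to 10.02. At the other end, the lowest strongest peaks were those of Rpl7a (1.96), Rps24 (2.03) and Rps16 (2.29).

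The strong CTCF peaks were almost all upstream of the gene. Of the 20 peaks with a fold enrichment of at least 10, 19 had their summit upstream of the nearest start, against 60.3% of the 3185 such peaks at the promoters of all genes. No such share is given for CpG-rich promoters or the other housekeeping families, so the placement cannot be called particular to these genes. The exception among the 20 was Rps9, with a summit 112 bp downstream of an annotated start, in a UTR. The median distance of the 20 summits from the start was 98 bp, compared with 160 bp for all genes. When a single start was used for each gene, that of the longest coding transcript, 18 of 19 were upstream, against 58.1% of 2449. Of the other 67 CTCF peaks 29 were upstream (43.3%, against 38.7%). Their median position was 45 bp downstream. Over all 87 CTCF peaks it was 56 bp upstream of the nearest start, compared with 39 bp downstream for all genes, and over the 93 Rad21 peaks it was 50 bp downstream, compared with 68 bp.

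**Figure D3:**
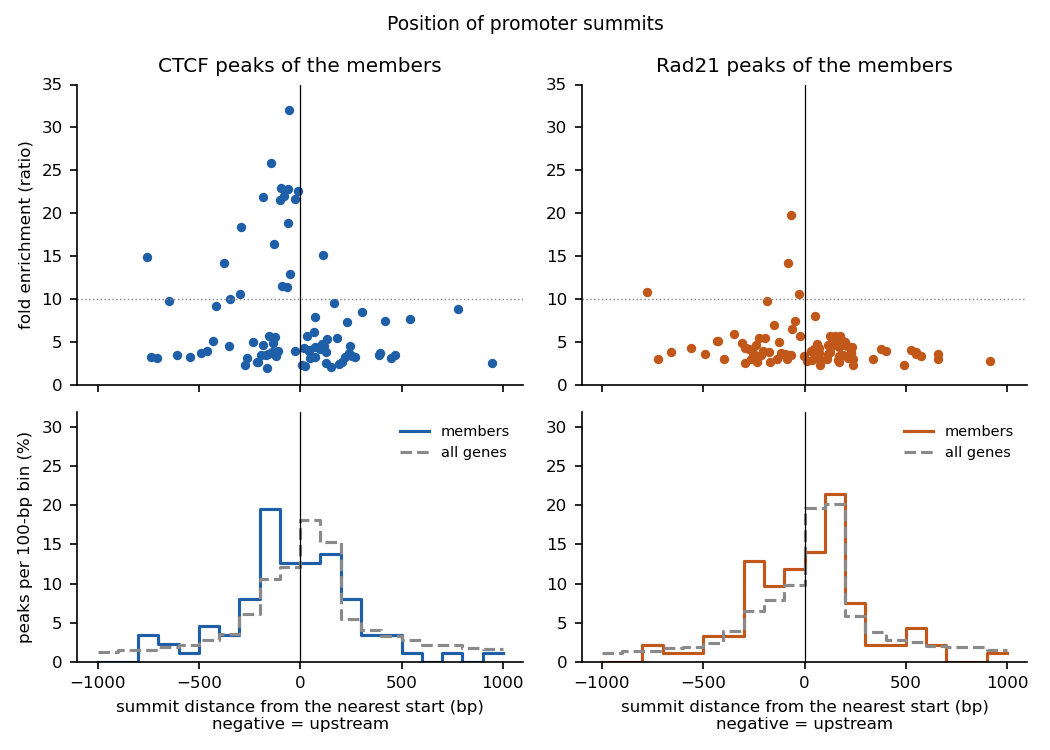
Upper panels plot fold enrichment (vertical axis, ratio) against the distance of the summit from the nearest start (horizontal axis, bp, upstream negative) for each of the 87 CTCF and 93 Rad21 peaks of the ribosomal protein genes, called members, with a dotted line at 10. Lower panels give the percent of peaks per 100-bp bin for these genes and for all genes. Of the 20 CTCF peaks at or above the line, 19 lie upstream, while weaker peaks lie on either side.

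Of the 87 CTCF peaks, 44 had their summit outside the annotated gene, 22 in an intron, 11 in a UTR, 4 in a coding exon and 6 in an exon of another transcript. The 93 Rad21 peaks had 33 summits outside the gene, 32 in an intron, 16 in a UTR, 3 in a coding exon and 9 in an exon of another transcript. These places are not given for all promoter peaks, so the counts do not show a difference from other genes. More than 1 CTCF peak was found at 21 genes (29.6%, against 17.7% of all genes and 29.6% of those with CpG-rich promoters) and more than 1 Rad21 peak at 25 (35.2%, against 19.7% and 33.2%).

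Motif content followed the strength of the peak. A motif was called in 1 of 51 CTCF peaks with a fold enrichment below 5, in 2 of 16 between 5 and 10, and in 10 of 20 at 10 or above. The corresponding shares for all promoter CTCF peaks were 5.80%, 12.2% and 47.2%. In total 13 of 87 CTCF peaks at ribosomal protein promoters held a motif (14.9%, against 16.7%), as did 8 of 93 Rad21 peaks (8.60%, against 12.8%). The 10 strong peaks without a motif included those of Rpl11, Rpl27, Rpl10a, Rps14, Rpl37, Rpl26, Rps9, Rps20 and Rps15a. Their best matches ranged from 1.802 bits at Rps9 to 13.6 bits at Rpl26, and those of Rpl26 and Rpl27 (12.8 bits) were the closest to the threshold. A missing match says only that the matrix did not reach the threshold in the 100 bp around the summit.

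The 93 Rad21 peaks at the same promoters had a median fold enrichment of 3.80 (interquartile range 3.13 to 4.75), below the 4.56 of 15315 promoter Rad21 peaks of all genes and the 4.93 of the whole list. Of the 93, 23.7% exceeded the median of the list, against 43.3% of all promoter Rad21 peaks. Only 4 genes reached a fold enrichment of at least 10 (5.63%, against 6.69% of all genes). They included Rpl13a with 19.8 (chr7:52391576-52392134), Rpl11 with 14.2 (chr4:135608871-135609744) and Rpl10a with 10.6 (chr17:28464955-28465721). The next 6 were Rpl27 (9.79), Rpl21 (7.96), Rpl36 (7.36), Rplp0 (6.99), Rps3a (6.48) and Rps2 (5.89). Of the 10, 8 also had a CTCF peak of at least 10, the exceptions being Rpl21, with a CTCF fold enrichment of 3.62, and Rps2, with 4.47. In all, 16 genes had a strongest Rad21 peak between 5 and 10 (22.5%, against 23.8% of all genes), and 43 had one below 5 (60.6%, against 22.8%).

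At promoters where CTCF was strong, the overlapping Rad21 peak was lower than at other promoters with strong CTCF. The 20 CTCF peaks with a fold enrichment of at least 10 all overlapped a Rad21 peak, and the Rad21 fold enrichment there had a median of 5.42 (interquartile range 3.90 to 7.97). At 3127 other promoter CTCF peaks of that strength it was 8.98 (6.28 to 13.3), and at 18516 such peaks elsewhere on the autosomes 12.7 (8.46 to 17.4). The CTCF values themselves were not lower, with medians of 18.6, 15.8 and 16.7, respectively. Of the 20 Rad21 values, 15 fell below the median of the other promoters and 12 below their lower quartile, while 2 exceeded the upper quartile (Rpl13a and Rpl11). Low Rad21 was not particular to these genes. Of the 18 other translation genes, 4 had a CTCF peak of at least 10. Their strongest promoter Rad21 peaks were 7.22 at Tpt1, 6.87 at Btf3 and 4.08 at Eif4a2, below 8.98, and 17.3 at Eif3f, above it. No such comparison is given for CpG-rich promoters or the other housekeeping families.

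Among these 20 genes the gap in rank was widest at Rps14, where CTCF exceeded 93.8% of its list and the overlapping Rad21 peak, at 3.42, exceeded 21.2% of its own. Rps15 (12.9 for CTCF and 2.93 for Rad21) exceeded 74.6% and 9.33%. Rps3a, first for CTCF, had a Rad21 value of 6.48 that exceeded 64.8% of the Rad21 list. Rpl13a was balanced, exceeding 96.0% and 95.5%. Of the 20 genes, 19 had the higher rank in the CTCF list (against 72.4% of other strong promoter pairs).

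**Figure D4:**
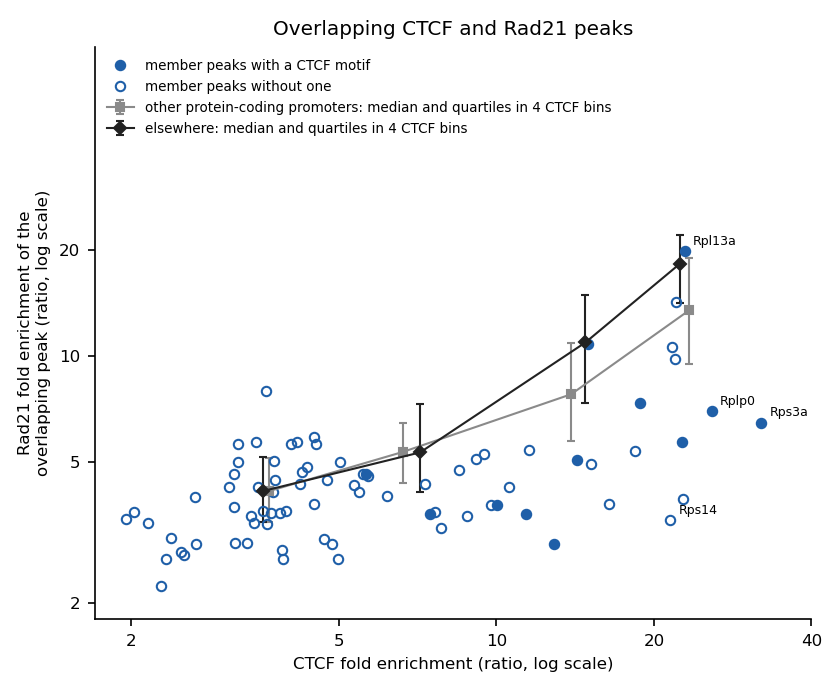
Rad21 fold enrichment (vertical axis, ratio, log scale) against CTCF fold enrichment (horizontal axis, ratio, log scale) for the 80 overlapping pairs at ribosomal protein promoters, called member peaks, filled where the CTCF peak held a motif. Squares and diamonds with bars give the median and quartiles in 4 bins of CTCF strength for other promoters and for peaks elsewhere, and above a CTCF value of 10 most circles lie under both lines, with Rpl13a among the exceptions.

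The same order was seen at a CTCF fold enrichment of at least 20, with Rad21 medians of 6.99 in 9 ribosomal protein promoter peaks, 13.5 in 854 at other promoters and 18.3 in 5145 elsewhere. Below 5 the difference was smaller (3.64 in 44 pairs, against 4.15 at other promoters). Among the CTCF peaks of at least 10 that held a motif, the Rad21 median was 6.10 in 10 pairs, against 11.01 in 1477 at other promoters. Over all 80 pairs, the correlation of the log2 fold enrichments of the 2 lists was 0.563 (Pearson) and 0.486 (Spearman), compared with 0.699 and 0.638 over 12598 pairs at other promoters. These are descriptions over peaks of the same merged libraries. The summits of the 80 pairs lay a median of 65 bp apart, and 51 pairs had summits within 100 bp.

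Ribosomal protein genes are known for their many processed pseudogenes, and the authors had left out reads that did not map uniquely. Uniqueness was measured within 1 kb of a single start per gene, that of the longest coding transcript, and so not around every start used for peaks. There, a median of 95.3% of 50-base words were unique in mm9, against 100% for all genes. Below 90% were 9 ribosomal protein genes (12.7%, against 13.6% of all genes). They were Rpl13, Rpl26, Rpl27, Rpl29, Rpl36, Rpl37a, Rpl38, Rplp0 and Rps29. The read length is not given in the sources used here. Of the 9, only Rps29 lacked a peak. Among the 20 genes with a CTCF peak of at least 10, 5 were below 90% (25%), namely Rpl26, Rpl27, Rpl36, Rpl38 and Rplp0. Whether this affected the fold enrichments was not tested. When only genes with at least 95% unique words were kept, the Rad21 median at strong CTCF peaks was 5.44 in 9 pairs, against 8.95 in 2868 at other promoters.

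The nearest overlapping CTCF and Rad21 peak, measured from any transcript start, lay between 74.5 and 271.5 bp away at the middle 50% of the genes (interquartile range). The median distance moved from within this range to 754 bp when a −log10 q (q being the adjusted p-value that the peak caller gives) of at least 10 was required of the peaks, and to 6840 bp with a fold enrichment of at least 5. Without these limits the peak was within 200 bp for 67.6% of the genes, compared with 33.8% of all genes, 55.6% of those with CpG-rich promoters and 60.5% of the mitochondrial ribosomal protein genes. It was nearest at Rpl5 and Rps16 (9 bp each), Rplp2 (19 bp), Rps19 (22 bp) and Rpl7 (25 bp). The CTCF peaks of the first pair differed in strength, with a fold enrichment of 22.6 at Rpl5 and 2.29 at Rps16. The nearest overlapping peak was farthest from Rpl15 (13402 bp), and was also far from Rps29 (9739 bp), Rps21 (5903 bp) and Rpl19 (4687 bp). The peak nearest to Rps21 was strong, with a CTCF fold enrichment of 20.7. Within 10 kb, 97.2% of the ribosomal protein genes had an overlapping peak, against 69.1% of all genes and 91.2% of those with CpG-rich promoters.

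**Figure D5:**
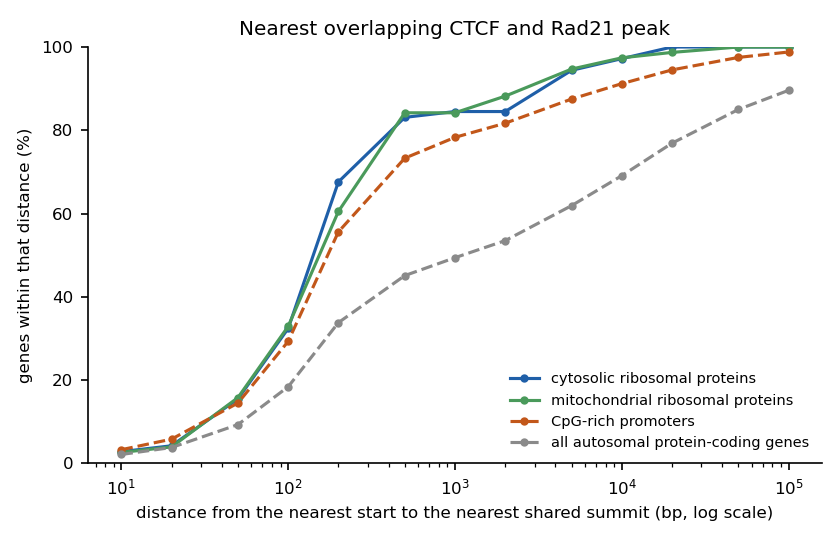
Cumulative percent of genes (vertical axis) whose nearest overlapping CTCF and Rad21 peak lies within a given distance of a transcript start (horizontal axis, bp, log scale), for cytosolic and mitochondrial ribosomal protein genes, CpG-rich promoters and all genes. The curves of both ribosomal protein families run together, reaching 84.5% and 84.2% at 1000 bp, above all genes at 49.4%.

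A start of another protein-coding gene within 1 kb was annotated for 14 of the 71 genes, 13 of them divergent (18.3%, against 10.5% of all genes). The 21 CTCF peaks at these shared promoters had a median fold enrichment of 3.46, against 5.003 in 66 peaks of the 57 genes without such a neighbour, and 1 of the 14 genes (Rpl13a) reached 10, compared with 19 of the 57. For all genes with such a neighbour, 20.1% reached 10, against 14.6% of those without. Of the 57 genes without a neighbour, 49 had overlapping peaks (86.0%, against 45.0% of all such genes). Of the 14 with one, 11 did (78.6%), which is close to the 76.4% of all genes with such a neighbour.

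Ribosomal protein genes also differed from the average of all genes in features that their symbols do not fix. They were short, with a median length of 3243 bp against 15540 bp, and 27 of the 71 hosted an annotated snoRNA gene (38.0%, against 1.18% of all genes and 6 of the 18 other translation genes, 33.3%). Of these 27 hosts, 25 had overlapping peaks (92.6%), against 35 of the 44 others (79.5%) and 78.7% of all 253 snoRNA hosts. A CTCF peak of at least 10 was found at similar shares of the hosts (7, or 25.9%) and the others (13, or 29.5%), and at 24.1% of all snoRNA hosts.

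In the promoter window from 250 bp before to 50 bp after the start, searched on both strands, the ETS core CCGGAAG occurred in 32.4% of ribosomal protein promoters, against 11.2% of all promoters, 19.8% of CpG-rich ones and 36.8% of those of mitochondrial ribosomal protein genes. The YY1 core ATGGCGG occurred in 18.3%, against 5.18%, 9.05% and 23.7%, in the same order, so both words were more frequent at the mitochondrial ribosomal protein genes. The E-box CACGTG occurred in 15.5%, against 7.85%, 11.6% and 6.58%. The TATA box TATAAA was found in 9.86%, below the 13.4% of all promoters but above the 4.61% of CpG-rich ones, and near the 9.21% of mitochondrial ribosomal protein genes. A pyrimidine run of at least 8 bases on the strand of the gene, within 25 bp of the start, was found in 42.3%, against 19.1%, 15.8% and 17.1%, in the first order, and 38.9% of the 18 other translation genes. These matches describe letters in a window and not bound sites, and their relation to the peaks was not tested. Within the 13 CTCF matches and their flanks, the only one of these words was the YY1 core in the match of Rps19, which lies 380 bp upstream of the start and outside the promoter window.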

How the data were processed

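The 71 genes, the comparison families and the lists were chosen with earlier results of these data known. Per the labels, reads were mapped to mm9 with Bowtie2 and peaks called with MACS2, and according to the methods the authors discarded reads without a unique position, blacklisted regions, and peaks that consisted of duplicate reads alone. The deposited lists give, per peak, a fold enrichment (a ratio to the local background), a −log10 q value, a −log10 p value (not used), a score derived from q (not used), and the summit offset. Fold enrichments, −log10 q and summits were used as deposited by the authors, and values of the 2 antibodies were related by rank within each list and, for overlapping pairs, by the correlation of log2 fold enrichments. No column of a single library was present (0). The lists give no depth, and read totals stated by the study were not used here.

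Starts came from the GENCODE annotation of NCBIM37, the assembly of mm9, in which 0 peaks ended beyond a chromosome. Promoter peaks had a summit within 1 kb of any annotated transcript start of the gene. The CTCF matrix was learned on odd-numbered autosomes and its threshold set on 55849 windows of even-numbered ones. Genes named in full were the 10 with the highest CTCF and the 10 with the highest Rad21 fold enrichment, those with a CTCF but no Rad21 peak, those with a motif (at most 12), the 5 nearest to and the 5 farthest from an overlapping peak, and those with neither peak. Any other member could be named. Values of some genes are not reported here, although counts and medians include them. Alternatives varied the window (500 bp, 2 kb), the start, −log10 q (10), fold enrichment (5), overlap, chromosomes, membership (adding ribosomal proteins outside the symbol rule) and motif threshold. Python used pandas 2.3.3, numpy 2.4.6, scipy 1.17.1, pysam 0.24.0 and matplotlib 3.10.9. Tested on simulated data, assignment and overlap made 0 errors and the motif learner recovered 477 of 480 planted motifs. Sequences on chromosome 18 are not shown. Male lists were not analysed here.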

Additional observations from a re-analysis of the deposited data

How the results depend on the processing

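Of 104 alternative values computed for 14 results, 72 kept their direction and stayed within the counting interval of the main value, or within 1.5 times it for counts. The others depended mostly on how weak a peak was accepted. With a fold enrichment of at least 5, the excess over all genes fell to 11.7 percentage points for CTCF (main value 33.7) and reversed to -2.32 for Rad21 (35.5) and -4.17 for overlapping peaks (35.1). The genes with a CTCF, Rad21 or overlapping peak then numbered 34, 20 and 15, with 5 having Rad21 without CTCF and 19 the opposite, the medians became 10.97 and 5.72, and the nearest overlapping peak was 6840 bp away. With a −log10 q of at least 10, the excess was 13.4 points for Rad21 and 12.4 for overlapping peaks, with 40 and 36 genes, and 15 genes had CTCF without Rad21. The medians were then 5.68 and 4.75, and the distance 754 bp. A comparison chosen after seeing the data set the 52 ribosomal protein genes with CpG-rich promoters against all genes with such promoters. The excess was then -0.302 points for CTCF, 2.58 for Rad21 and 0.583 for overlapping peaks. The shares of all 71 genes (87.3%, 88.7% and 84.5%) were above those of genes with CpG-rich promoters (83.0%, 82.0% and 78.3%). Requiring summits within 100 bp gave an excess of 24.9 points for overlapping peaks and a distance of 230 bp, and a single start per gene a distance of 189 bp. The small classes moved by 1 gene, to 1 with Rad21 only (window of 2 kb) and 2 with CTCF only (window of 500 bp, or with the X chromosome). A 5% background rate gave 27 CTCF and 18 Rad21 peaks with a motif. The Rad21 deficit at strong CTCF peaks, -3.56 relative to other promoters and itself added after seeing the data, was -1.53 from a CTCF value of 5 and -6.48 from 20, and stayed negative under the other 7 alternatives. No paired analysis was possible because each list merges its libraries. The merged lists give no SD, and a region without a peak may still be bound.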

Other observations

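Ribosomal protein genes on the X chromosome, left out of the 71, were read from the same lists. Rps4x, the X-linked copy of the small subunit protein S4, had a CTCF fold enrichment of 20.3 (chrX:99384434-99385027) and a Rad21 fold enrichment of 7.30, and Rpl36a had 17.5 (chrX:131119864-131120659) and 4.46. Rpl10 had 8.13 and 3.82. Rpl39 had a CTCF peak of 7.82 without a Rad21 promoter peak, and its nearest overlapping peak lay 10421 bp away.

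Among ribosomal protein genes whose symbols do not follow the Rpl or Rps pattern, Rpsa (laminin receptor) had 7.09 for CTCF and 5.33 for Rad21, and Fau had neither peak, with the nearest overlapping peak 3423 bp away. Of 7 annotated paralogs, 4 had overlapping peaks. These were Rpl7l1 (16.3 and 10.03), Rps27l (11.2 and 6.495), Rpl36al (8.19 and 4.90) and Rpl22l1 (6.93 and 5.604). Neither peak was found at Rpl3l, Rpl10l or Rpl39l. The nearest overlapping peak to Rpl10l was 568954 bp away, farther than for any of the 71 genes, where the largest distance was 13402 bp.

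Among the 18 other translation genes, Eif3f had the strongest CTCF peak (24.0, with 17.3 for Rad21), followed by Tpt1 (16.0 and 7.22), Btf3 (15.3 and 6.87) and Eif4a2 (10.2 and 4.08). Eef1b2, Eef2 and Hnrnpa1 had neither peak.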
